A study of Homo sapiens with 4 samples.

Results

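The SIX-family and EYA-family genes were examined at 9 promoters, those of SIX2, SIX3, SIX4, SIX5, SIX6, EYA1, EYA2, EYA3 and EYA4, out of the 20242 promoters in the deposited tables. They were picked by gene symbol, and each symbol matched a single promoter. The study used JMJD3c-hESCs, a puromycin-selected derivative of SEES-3, a line of human embryonic stem cells, that carries the reverse Tet transactivator and a piggyBac transgene in which doxycycline (Dox) turns on JMJD3c, the catalytic region of the histone H3K27 demethylase JMJD3. Cells kept in StemFit AK-03 medium were either left without Dox (−Dox) or given Dox at 1 µg/ml (+Dox) and harvested on day 3, and chromatin was immunoprecipitated for H3K27me3 or H3K4me3. All groups, −Dox cells included, carry the transgene, and cells given Dox without JMJD3c were not analysed here. There is 1 library for each mark and condition, 4 in all, and therefore no test and no p-value, so that each ratio compares a pair of libraries and has no replicate check. Whether the cells of all libraries came from the same clone is not given in the sources used here.

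SIX-family proteins are homeodomain transcription factors. EYA proteins do not bind DNA by themselves but act as coactivators of the SIX-family factors, and carry a phosphatase domain. Together with PAX and DACH proteins they form the retinal determination network first described in the fly eye, which in vertebrates works in the eye, inner ear, kidney, skeletal muscle and cranial placodes. In embryonic stem cells many such regulators are held silent at bivalent promoters, which carry H3K27me3, laid down by Polycomb, together with H3K4me3, which marks promoters that are in use or ready for it. A lower signal from a bulk library can mean fewer cells with the mark or less of it in each cell, and these cannot be told apart.

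Values are coverage signal around the transcription start, taken here as scaled to the reads of each library, over 3 kb on either side. Promoters were called bivalent where both marks exceeded 20, the threshold in the study's methods. Approximate read numbers, worked out from the step size of the values, were used for 95% intervals that cover counting error only. By the step sizes the 4 libraries held about 2629351 to 3509245 reads. The H3K27me3 and H3K4me3 libraries of +Dox cells had the same step, 0.3728442, and so the same inferred number of about 2682085 reads. Whether the step gives each library's own depth was not tested, and the deposited ratios depend on it. The median promoter had only about 4.75 H3K27me3 reads in either condition, against 42.6 and 30.8 H3K4me3 reads in −Dox and +Dox cells. Of 8 genes typical of embryonic stem cells, 7 carried H3K4me3 without H3K27me3 in −Dox cells, and POU5F1, with an H3K4me3 signal of 5.41, was the exception.

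The bases just upstream of the transcription start are shown for 3 genes that were bivalent in −Dox cells (SIX6, SIX2 and EYA4) and for 1 with H3K4me3 alone (SIX4), because Polycomb and H3K4 methylation both gather at CpG-rich promoters. RefSeq sequences of build GRCh38.p14 were on hand for 5 of the 9 genes. Each run reads 5′ to 3′ and ends at the base before the RefSeq start, and capitals mark CpG dinucleotides. SIX6 is on the plus strand at chr14:60508896-60509145, SIX2 on the minus strand at chr2:45009453-45009702, EYA4 on the plus strand at chr6:133241107-133241356 and SIX4 on the minus strand at chr14:60724352-60724601.
SIX6: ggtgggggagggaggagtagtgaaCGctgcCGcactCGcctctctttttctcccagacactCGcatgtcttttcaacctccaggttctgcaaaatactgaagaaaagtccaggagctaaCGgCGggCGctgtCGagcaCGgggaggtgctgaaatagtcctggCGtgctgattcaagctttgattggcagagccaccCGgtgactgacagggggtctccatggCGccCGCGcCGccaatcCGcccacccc
SIX2: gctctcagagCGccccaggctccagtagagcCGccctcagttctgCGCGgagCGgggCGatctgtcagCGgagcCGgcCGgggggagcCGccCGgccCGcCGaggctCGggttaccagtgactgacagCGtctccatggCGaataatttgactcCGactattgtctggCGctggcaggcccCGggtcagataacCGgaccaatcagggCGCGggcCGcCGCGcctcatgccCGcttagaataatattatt
EYA4: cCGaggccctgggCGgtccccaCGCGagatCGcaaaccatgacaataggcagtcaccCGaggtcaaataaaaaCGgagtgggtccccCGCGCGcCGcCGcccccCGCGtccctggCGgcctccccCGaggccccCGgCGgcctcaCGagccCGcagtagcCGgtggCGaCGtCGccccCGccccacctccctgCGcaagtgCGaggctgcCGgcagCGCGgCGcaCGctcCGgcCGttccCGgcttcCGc
SIX4: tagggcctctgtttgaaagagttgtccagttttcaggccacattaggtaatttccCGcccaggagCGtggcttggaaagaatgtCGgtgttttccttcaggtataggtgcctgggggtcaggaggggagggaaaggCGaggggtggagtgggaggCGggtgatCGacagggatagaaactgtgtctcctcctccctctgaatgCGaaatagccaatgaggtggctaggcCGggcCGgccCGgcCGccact
Within these 250 bases there were 16 CpGs at SIX6, 26 at SIX2, 36 at EYA4 and 11 at SIX4. The stretch of EYA3, another H3K4me3-only gene, is not shown and held 20. The median of the 35116 RefSeq promoters was 11, so the SIX4 stretch was at the median and the 3 bivalent genes shown lay above it. EYA3 also lay above the median, with more CpGs than the bivalent SIX6. SIX6 had the fewest CpGs of the 3 bivalent genes shown and EYA4 the most. The RefSeq start coincided with the deposited start at SIX2, SIX4, SIX6 and EYA3, whereas the deposited EYA4 transcript could not be placed.

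In −Dox cells the 9 promoters fell into different classes. SIX2, SIX3, SIX6, EYA2 and EYA4 were bivalent (5 of 9), compared with 9.42% of all promoters. SIX4, SIX5 and EYA3 carried H3K4me3 only (3 of 9, against 54.2% of all promoters), and EYA1 was unmarked at its deposited start. Each family contained both kinds of gene, with 3 of 5 SIX-family genes and 2 of 4 EYA genes bivalent. The H3K27me3 signal of the bivalent genes ran from 46.4 at EYA2 to 176 at SIX6, whereas that of the other 4 ran from 3.04 to 7.61. In −Dox cells H3K27me3 stood in the order SIX6, SIX2, EYA4, SIX3, EYA2, EYA1, then SIX4 and SIX5 with equal values, and EYA3. The counting intervals of SIX6 and SIX2 overlapped, as did those of SIX2 and EYA4, those of SIX3 and EYA2 and those of the last 4 genes, whereas EYA4 stood apart from SIX3 and EYA2 from EYA1.

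**Figure D1:**
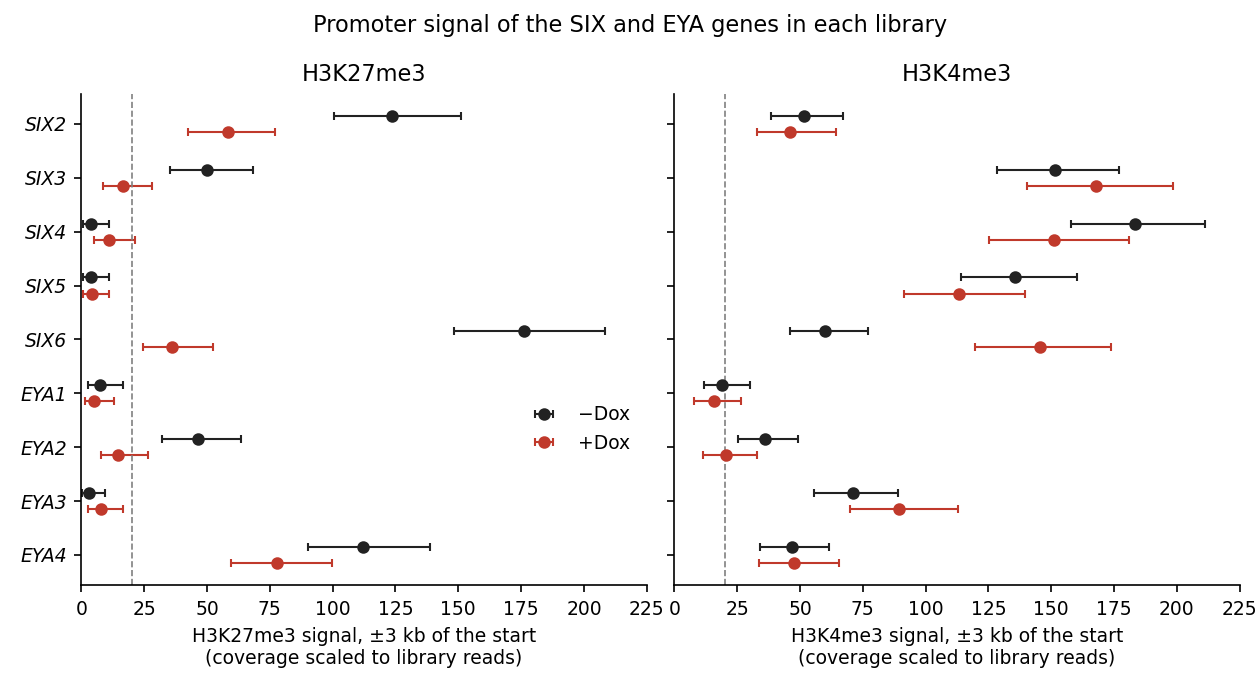
H3K27me3 (left) and H3K4me3 (right) signal on linear axes at each of the 9 promoters, with 1 dot per library (black −Dox, red +Dox), 95% counting intervals as bars, and the class threshold of 20 as a dashed line. SIX6 moved most, down in H3K27me3 from 176 to 36.2 and up in H3K4me3 from 59.8 to 145.

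H3K27me3 was lower in +Dox cells at all 5 bivalent members. A lower signal was common in this class, as 90.5% of bivalent promoters had a +Dox/−Dox ratio under 1.08, the ratio of SIX5. The ratio was below 0.5 at 4 of the 5 members, SIX6, EYA2, SIX3 and SIX2. That is 4 of the 9 genes, where 21.5% of all promoters and 40.8% of bivalent promoters lay below 0.5. With the looser limit of 0.66 the count stayed at 4, against 33.6% of all and 61.4% of bivalent promoters. The counting interval of the ratio lay below 1 at all 5 bivalent members, which was so at 6.99% of all and 48.2% of bivalent promoters. Members and other promoters were called bivalent partly by the −Dox H3K27me3 signal, which is also the denominator of this ratio. That choice by itself favours low ratios in the class. The median log2 H3K27me3 ratio was −0.54 over the 9 genes and −1.58 over the 5 bivalent members, beside −0.14 over all promoters with a ratio and −0.81 over bivalent promoters. For H3K4me3 the median log2 ratio was −0.16 over the 9 genes and −0.02 over all promoters, and the counting interval of the ratio included 1 at 8 of the 9 genes.

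**Figure D2:**
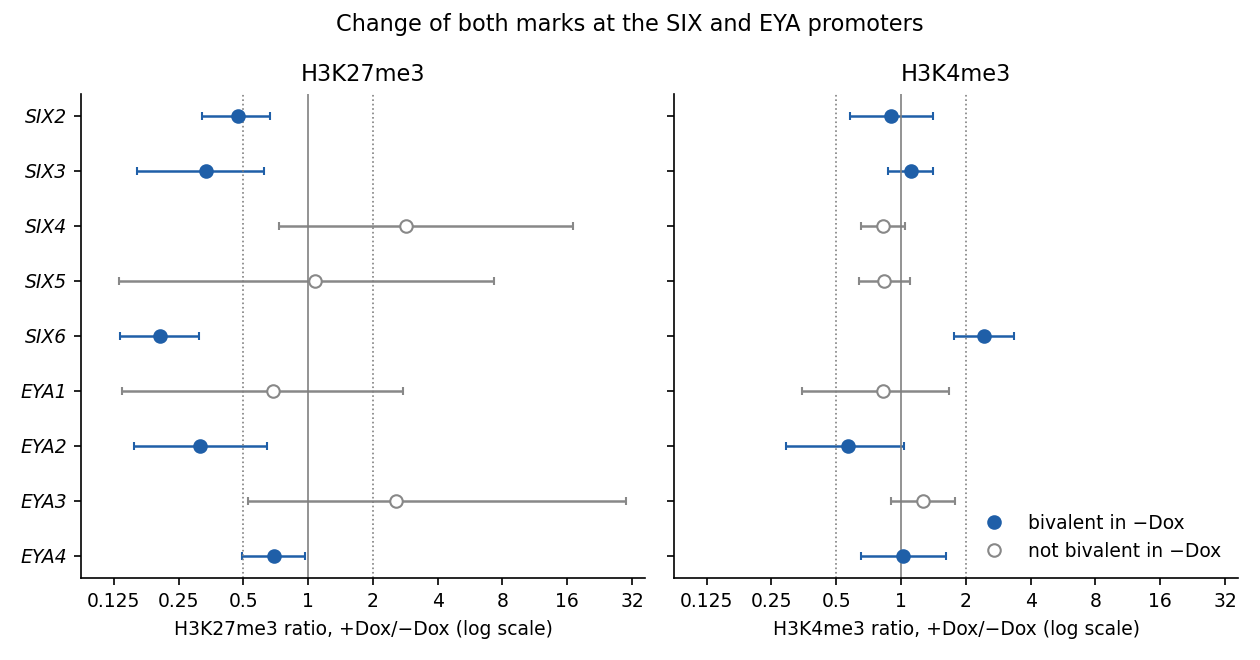
Ratio of +Dox to −Dox signal on a log scale for H3K27me3 (left) and H3K4me3 (right), with 95% counting intervals as bars, filled symbols for the 5 genes bivalent in −Dox cells, a solid line at 1 and dotted lines at 0.5 and 2. The bars of the 5 bivalent genes lie below 1 for H3K27me3, and only the SIX6 bar lies wholly above 1 for H3K4me3.

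SIX3 and SIX6 are the closely related pair that acts in the forebrain and eye field, where SIX3 holds back Wnt signalling and SIX6 is needed for growth of the retina and pituitary. H3K27me3 at SIX6 (ENSG00000184302, hg19 window chr14:60972864-60978864) was 176 in −Dox and 36.2 in +Dox cells, about 138 and 28.8 reads. The −Dox value exceeded those of 99.4% of promoters, and the +Dox value was still above the threshold of 20. The ratio was 0.205 (interval 0.133 to 0.310), and 95 of the 1907 bivalent promoters (4.98%) had a lower ratio. H3K4me3 at SIX6 went the other way, from 59.8 to 145, about 61.8 and 115 reads, a ratio of 2.43 (1.76 to 3.34).

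An H3K4me3 ratio as high as that of SIX6 was uncommon among bivalent promoters. Ratios above 2 for this mark were seen at 1199 of 19678 promoters (6.09%). The bivalent class requires a −Dox H3K4me3 signal above 20 and so leaves out low-signal promoters, which the share over all promoters includes. The shares of the classes are therefore not alike. Among bivalent promoters 3 of 1907 (0.157%) had such a ratio. A single bivalent promoter had a higher H3K4me3 ratio than SIX6, and all 3 also had an H3K27me3 ratio below 0.5. In +Dox cells SIX6 exceeded 98.7% of promoters in H3K4me3, having exceeded 65.6% in −Dox cells. SIX6 was the only member past a ratio of 2 for H3K4me3, no member was below 0.5 for this mark (5.33% of all promoters were), and SIX6 was also the only member with an interval above 1 (1.71% of all promoters).

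SIX3 (ENSG00000138083, chr2:45165841-45171841) already carried much more H3K4me3 than SIX6 in −Dox cells. Its H3K4me3 signal was 152 without and 168 with Dox, and both values lay above those of at least 98.8% of promoters. The ratio of 1.11 (0.873 to 1.41) included no change. H3K27me3 at SIX3 was 50.2 without and 16.8 with Dox, from about 39.3 and 13.4 reads. The ratio was 0.334 (0.161 to 0.627). The +Dox value lay below the threshold, so that by these values the SIX3 promoter passed from bivalent to H3K4me3-only, while SIX6 stayed bivalent. Counting intervals of the +Dox H3K27me3 signal were 8.70 to 27.9 at SIX3, which spans the threshold, and 24.4 to 52.3 at SIX6. The H3K27me3 ratio intervals of the pair overlapped, and the H3K4me3 ones did not.

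SIX2, which keeps nephron progenitors of the kidney in a self-renewing state, lies 67.75 kb from SIX3 (ENSG00000170577, chr2:45233591-45239591), and the 2 windows do not overlap. H3K27me3 at SIX2 was 124 in −Dox and 58.2 in +Dox cells, about 96.7 and 46.3 reads. The ratio of 0.471 (0.321 to 0.669) rose to 0.554 when the H3K27me3 libraries were scaled to the same total, and then no longer counted as below 0.5. H3K4me3 at SIX2 was 51.6 and 46.2, a ratio of 0.896 (0.580 to 1.41). SIX2 therefore stayed bivalent with less H3K27me3, and its H3K27me3 interval did not overlap that of SIX6.

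SIX4 and SIX5 are another closely related pair. SIX4 works in muscle precursors, and SIX5 lies next to DMPK, the gene carrying the repeat expansion of myotonic dystrophy. Both promoters had very strong H3K4me3 and almost no H3K27me3. SIX4 (ENSG00000100625, chr14:61188069-61194069) had an H3K4me3 signal of 184 without and 151 with Dox, which gives a ratio of 0.823 (0.651 to 1.04). SIX5 (ENSG00000177045, chr19:46269510-46275510) had 136 and 113, a ratio of 0.836 (0.634 to 1.10). In −Dox cells these H3K4me3 signals exceeded those of 99.7% and 97.8% of promoters. Setting to 1 the median ratio of low promoters, those with a mean signal of 20 or less for the mark, which multiplies H3K4me3 ratios by 0.944, brought the upper end of the SIX4 interval to 0.985.

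H3K27me3 at SIX4 was 3.80 in −Dox and 10.8 in +Dox cells, about 3 and 8.6 reads, which gives a ratio of 2.84 with an interval from 0.736 to 16.9. EYA3 was similar, and these were the 2 members with an H3K27me3 ratio above 2, which 14.7% of all promoters also reached. At SIX5 H3K27me3 was 3.80 and 4.10. At so few reads a change of H3K27me3 was not detectable at SIX4 and SIX5, and both values of each gene lay below the class threshold.

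**Figure D3:**
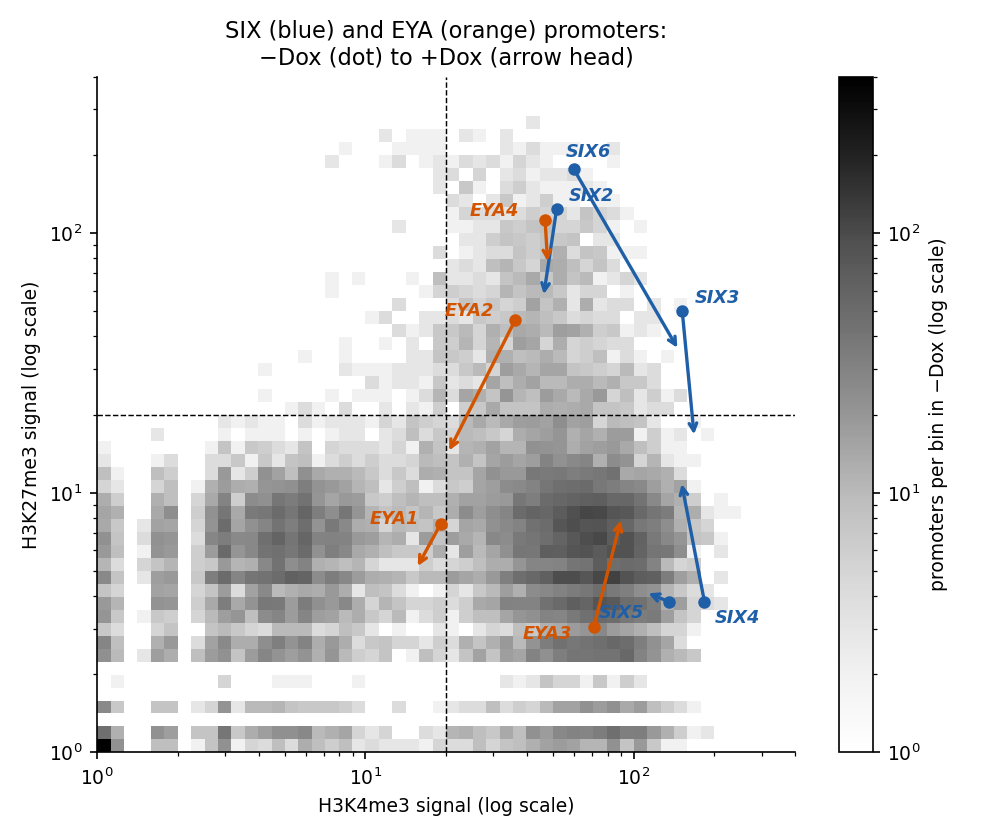
H3K4me3 against H3K27me3 signal on log axes, with the number of all promoters per bin in −Dox cells in grey (values under 1 drawn at 1), the threshold of 20 for each mark as dashed lines, and an arrow from the −Dox dot to the +Dox value of each gene (blue for SIX-family, orange for EYA). The SIX3 and EYA2 arrows cross from the bivalent into the H3K4me3-only area, and the SIX6 arrow runs down and to the right within the bivalent area.

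The EYA genes also differed from each other. EYA4, in which mutations cause hearing loss and a heart muscle disease, had H3K27me3 signals of 112 in −Dox and 77.9 in +Dox cells, about 87.8 and 62.0 reads. The EYA4 (ENSG00000112319, position not assigned) ratio of 0.695 (0.492 to 0.970) was the highest of the bivalent members, and its interval did not overlap that of SIX6. With scaling to the same total the EYA4 interval was 0.579 to 1.14, and with scaling over low promoters 0.524 to 1.03, so whether the interval lay below 1 at EYA4 depended on the scaling. H3K4me3 at EYA4 was 46.7 and 47.7, and the promoter stayed bivalent.

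EYA2 (ENSG00000064655, chr20:45520482-45526482) had the lowest H3K4me3 ratio of the members, beside an H3K27me3 ratio below 0.5. H3K27me3 was 46.4 without and 14.5 with Dox, from about 36.3 and 11.6 reads, which gives a ratio of 0.313 (0.155 to 0.645). H3K4me3 was 36.2 and 20.5, about 37.4 and 16.3 reads. The H3K4me3 ratio of 0.567 (0.292 to 1.04) just included 1, and its upper end was 0.978 with scaling over low promoters. Among bivalent promoters 8.18% had a lower H3K4me3 ratio. By its H3K27me3 value EYA2 was no longer bivalent in +Dox cells, although the counting interval of that value, 7.79 to 26.3, spanned the threshold. Its H3K4me3 value of 20.5 placed it only narrowly in the H3K4me3-only rather than the unmarked class.

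EYA3, which dephosphorylates the histone variant H2AX in the response to DNA damage, resembled SIX4 and SIX5. EYA3 (ENSG00000158161, chr1:28412121-28418121) had H3K4me3 signals of 71.0 without and 89.5 with Dox and a ratio of 1.26 (0.899 to 1.78). Its H3K27me3 was 3.04 and 7.83, about 2.4 and 6.2 reads, and the ratio of 2.57 had an interval from 0.527 to 29.9. None of the 9 genes had an H3K4me3 interval below 1 with the deposited scaling, which 3.04% of all promoters had.

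EYA1, mutated in branchio-oto-renal syndrome, had low values for both marks at its deposited start (ENSG00000104313, chr8:72271304-72277304). H3K27me3 was 7.61 without and 5.22 with Dox, while H3K4me3 was 19.1 and 15.7. All 4 values were under the threshold, the −Dox H3K4me3 value narrowly. The ratio intervals were 0.136 to 2.76 and 0.348 to 1.68, and neither change was detectable at this depth. The deposited start is the canonical start of EYA1 in GENCODE 44. A transcript that the files list under RP11-1102P16.1 (ENSG00000253379) is placed in EYA1 by this annotation, with a start 185.6 kb upstream (chr8:72456892-72462892), and was looked at after its values were known. There H3K27me3 was 19.0 in −Dox and 5.59 in +Dox cells, about 14.9 and 4.5 reads, a ratio of 0.294 (0.0633 to 0.823). H3K4me3 at this upstream start was 28.5 and 33.6, above the threshold in both conditions and higher than at the deposited EYA1 start.

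By the +Dox values 3 of the 9 genes were bivalent, SIX2, SIX6 and EYA4, beside 5.07% of all promoters. With a class threshold of 10 the number was 6, the additional genes being SIX3, EYA2 and SIX4, and in −Dox cells it was 5. The share of all promoters at that threshold was not computed. No promoter of the 9 gained bivalency at the threshold of 20.

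Sequence composition of the windows was compared with these states. In the 6001-base windows of build GRCh37 the GC content ran from 33.1% at EYA1 to 67.8% at SIX5, and EYA4 has no value because it was not placed. The ratio of observed to expected CpGs was between 0.521 and 0.680 at all 5 SIX-family genes and 0.607 at EYA2, against medians of 0.545 over bivalent and 0.494 over H3K4me3-only promoters. It was lower at EYA1 and EYA3, with 0.433 and 0.447. The H3K4me3-only genes SIX4 and SIX5, at 0.680 and 0.650, were as CpG-rich as the bivalent genes SIX6 and SIX3, at 0.668 and 0.641, so these ratios did not separate the classes among the genes measured.

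The network around these genes was described by 3 lists. Of 7 PAX and DACH genes, 4 were bivalent in −Dox cells, 2 H3K27me3-only and 1 H3K4me3-only. Over all promoters 9.42% were bivalent and 54.2% H3K4me3-only. Of the 18243 promoters with a placed window, 292 were H3K27me3-only in −Dox cells. PAX2, PAX3, PAX6 and PAX8, which specify kidney, ear, muscle and eye precursors, had H3K27me3 ratios of 1.07, 1.21, 1.14 and 1.13, each with an interval that included 1, at −Dox signals of 144 to 218. With scaling to the same total, 3 genes of the list had intervals above 1. The bivalent genes SIX2, SIX6 and EYA4 had −Dox H3K27me3 signals of 112 to 176 and ratios of 0.695 or less. PAX6 and PAX8 were also bivalent in −Dox cells, whereas PAX2 and PAX3 were H3K27me3-only, with H3K4me3 signals of 19.7 and 13.1. Only PAX7, a factor of muscle stem cells, was below 0.5 in this list, with H3K27me3 signals of 133 and 36.5 and a ratio of 0.274 (0.175 to 0.417). Its H3K4me3 signals were 34.2 and 63.4, with a ratio of 1.85 (1.18 to 2.95). For H3K4me3, 4 genes of the list had a ratio below 1 and 3 above, where the median log2 ratio over all promoters was −0.02. PAX2 and PAX3 had H3K4me3 ratios of 0.474 (0.163 to 1.12) and 0.455 (0.131 to 1.36). All H3K4me3 intervals of the list but that of PAX7 included 1. DACH1, a corepressor that acts with SIX-family factors, had an H3K27me3 ratio of 0.640 (0.410 to 0.982). The upper end for DACH1 was 1.16 with scaling to the same total and 1.05 with scaling over low promoters, so its interval then included 1. Over the PAX and DACH genes the median log2 value for H3K27me3 was 0.10.

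Of 7 genes around SIX3 and SIX6 in the eye field and forebrain, 5 were bivalent in −Dox cells, against 9.42% of all promoters. LHX2, RAX and NR2E1 had H3K27me3 ratios of 1.03, 1.09 and 0.998, each with an interval that included 1 with the deposited scaling. OTX2, a forebrain and eye factor also used in early endoderm, was alone below 0.5, with H3K27me3 signals of 143 and 30.2, a ratio of 0.211 (0.130 to 0.330). The OTX2 ratio was close to that of SIX6, whereas its H3K4me3 signals of 40.7 and 61.1 gave a ratio with an interval of 0.984 to 2.35. TBX3, a T-box repressor, was bivalent with H3K27me3 signals of 104 and 58.5, a ratio of 0.562 (0.385 to 0.816). TLE1 and TLE4, Groucho corepressors that bind SIX3 and SIX6, were H3K4me3-only. H3K27me3 at TLE1 was 3.80 and 16.4, a ratio of 4.31 with an interval above 1 (1.17 to 23.3). It was the only such interval in this list with the deposited scaling. With scaling to the same total 2 H3K27me3 intervals lay above 1, those of TLE1 and RAX. H3K27me3 at TLE4 was 3.42 and 12.3, a ratio of 3.59 (0.844 to 18.5). All 4 values were below 20. The median log2 H3K27me3 ratio of these 7 genes was 0.04. For H3K4me3, 2 of the 7 genes had a ratio below 1 and 5 above, where the median log2 ratio over all promoters was −0.02. Only the H3K4me3 interval of NR2E1 lay below 1, at 0.562 (0.302 to 0.990), and 0 lay above. With scaling to the same total 0 H3K4me3 intervals lay below 1 and 2 above.

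Among 12 genes that act with or after these factors in muscle, kidney and ear, 8 were bivalent, 11 had less H3K27me3 in +Dox cells and 4 were below 0.5 times the −Dox value, with a median log2 ratio of −0.70. For comparison, 9.42% of all promoters were bivalent, and 90.5% of bivalent promoters had an H3K27me3 ratio under 1.08, the ratio of SIX5. The share of all promoters with a ratio below 1 was not computed. Their median log2 ratio was negative, so a lower signal was common among them too. A ratio below 0.5 was seen at 21.5% of all and 40.8% of bivalent promoters, with medians of −0.14 and −0.81. Of those 4 genes, only SOBP, a cofactor of SIX-family proteins, exceeded a signal of 20, with H3K27me3 at 22.8 and 11.2, a ratio of 0.490 (0.195 to 1.15), while FGF10, MYF5 and MYOG were below 20 in both conditions. The intervals of FOXD1, GDNF and NEUROG1 lay below 1, with ratios of 0.578, 0.657 and 0.572, and that of the kidney factor WT1 lay above 1, at 1.27 (1.04 to 1.57). GDNF, the ligand that draws out the ureteric bud, had H3K27me3 signals of 118 and 77.2, and the upper end of its ratio interval was 1.07 with scaling to the same total. The interval of the myogenic factor MYOD1 included 1, at 0.964 (0.687 to 1.37). For H3K4me3, 8 of the 12 genes had a ratio below 1 and 4 above. The median log2 H3K4me3 ratio was −0.02 over all promoters and −0.18 over bivalent promoters. The share of all promoters with an H3K4me3 ratio below 1 was not computed. Only the H3K4me3 interval of NEUROG1 lay below 1, at 0.333 (0.133 to 0.747), and 0 lay above.

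**Figure D4:**
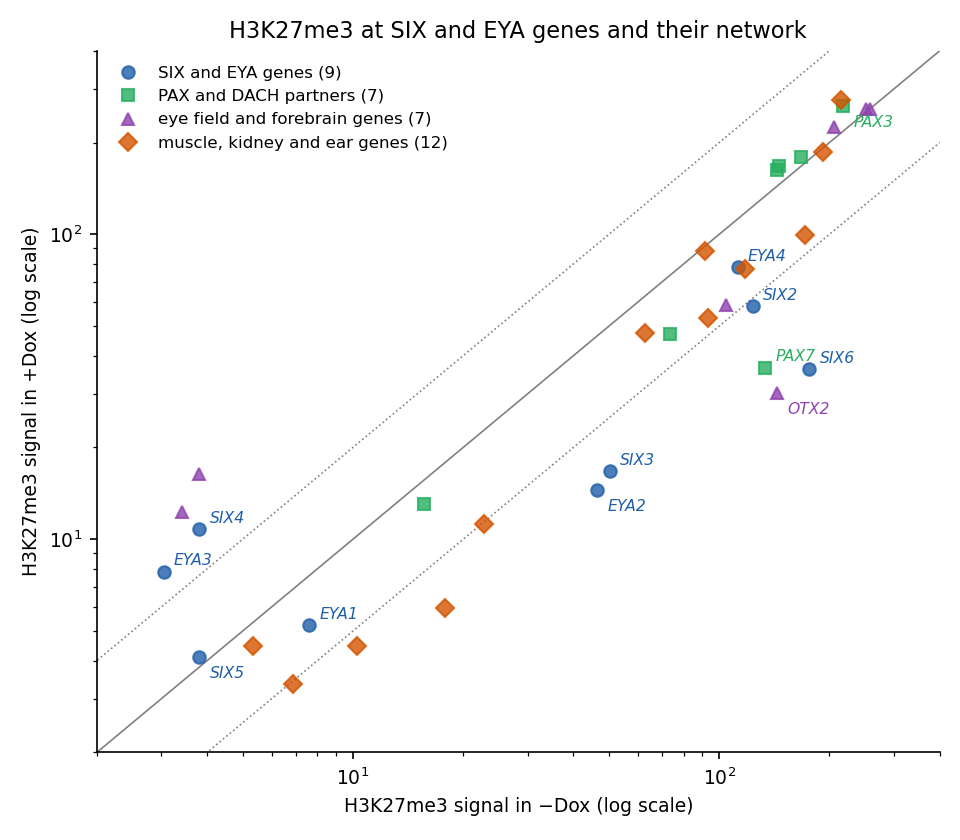
H3K27me3 signal in +Dox against −Dox cells on log axes, 1 symbol per promoter for the 9 genes and the 3 lists of network genes, with a solid line at a ratio of 1 and dotted lines at 0.5 and 2. SIX6, EYA2, SIX3 and SIX2 lie under the lower dotted line with PAX7, OTX2, SOBP, FGF10, MYF5 and MYOG, while most PAX genes lie near or above the solid line.

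The promoter most like each member across the 4 libraries was found by Euclidean distance on log2(signal + 5). SIX6 had the most distant partner, SOX14, at 0.83 log2 units, with H3K27me3 signals of 129 and 52.9 and H3K4me3 signals of 58.7 and 101. The partners of the other bivalent genes were DSC3 for SIX2 (0.29), MARCKS for SIX3 (0.35), CD302 for EYA2 (0.25) and LHX5 for EYA4 (0.21). MARCKS, like SIX3, joined very high H3K4me3 (176 and 157) to H3K27me3 of 49.8 and 13.0. STX10, TSEN34, TRPV4 and FAHD2A were nearest to SIX4, SIX5, EYA1 and EYA3, at distances of 0.05 to 0.17.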

How the data were processed

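The authors mapped single-end MiSeq reads to hg19 with Bowtie2, removed mitochondrial reads and ran ngs.plot, and the files list 1 transcript per Ensembl gene. The deposited values are signal, coverage that by its step sizes was taken to be scaled to library reads, although the +Dox libraries of both marks share a step. Input libraries were not used here. Mapper, ngs.plot and annotation versions, and whether the profile scaling in the methods reached these values, are not given in the sources used here. Scaling to library reads hides a decrease common to all regions.

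Ratios are plain +Dox/−Dox values. All values were whole multiples (within 0.01 steps) of a step per library, and 1 read covered about 3.36 to 3.40 steps. Ratio intervals are exact Clopper-Pearson intervals of the +Dox share of approximate reads, and signal intervals are exact Poisson. Since molecules carried no identifiers, reads may be copies, and intervals cover counting error only. Scripts (Python 3.11.15, SciPy 1.17.1) were tested on simulated data. Positions matched GENCODE 44 on GRCh37 for 18244 of 20242 transcripts (90.1%).

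All members are described. Other genes were named from 3 network lists where the H3K27me3 ratio was below 0.5 or above 2 with a signal above 20 (PAX7, OTX2, SOBP), or as the nearest pattern. The remaining list genes and the neighbours named were chosen after their values were seen. Members and lists were chosen with earlier results of these data known. The values of 1 further gene of the family and of 1 gene of the eye field list are not reported here, and that list was counted without it. Alternatives were 2 other scalings, a pseudocount of 5, class thresholds of 10 and 30, and leaving out members with a mean signal under 10.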

Additional observations from a re-analysis of the deposited data

How the results depend on the processing

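Of 13 recomputed counts, 12 stayed within 1.5 times the reported count, the exception being the number of bivalent promoters in +Dox cells, which was 6 rather than 3 at a class threshold of 10. All 54 recomputed ratios of single genes stayed inside their counting intervals. The number of genes with an H3K27me3 ratio below 0.5 was 3 under both other scalings, where SIX2 had ratios of 0.554 and 0.501, and 4 with a pseudocount of 5. The median log2 H3K27me3 ratio over the 9 genes lay between −0.31 with scaling to the same total and −1.58 without the 4 genes of low signal, against −0.54 as reported, and that for H3K4me3 between −0.24 and −0.12, against −0.16. No paired analysis was possible because only a single library per mark and condition exists here, which also means that none could be left out. Depth limits H3K27me3 most at SIX4, SIX5, EYA1 and EYA3, which had fewer than 9 reads in each condition.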

Other observations

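The surroundings of the SIX-family genes were also examined. Among the promoters counted, 1 lay within 100 kb of SIX4, 1 of SIX6 and 10 of SIX5, SIX2 and SIX3 were each other's neighbour, and no window overlapped that of a member. C14orf39, 54.1 kb from SIX6, was unmarked, with H3K27me3 signals of 5.32 in −Dox and 9.32 in +Dox cells and H3K4me3 signals of 5.13 and 4.47, all under the class threshold. MNAT1, which encodes a subunit of the CDK-activating kinase and starts 10.4 kb from SIX4, was H3K4me3-only with signals of 55.9 and 43.6 for that mark. Of the 10 neighbours of SIX5, 8 were H3K4me3-only and 2 unmarked in −Dox cells, where 54.2% of all promoters were H3K4me3-only. FOXA3, SYMPK, QPCTL and SNRPD2 had H3K4me3 signals of 131, 131, 112 and 109 in −Dox cells, beside the 136 of SIX5. The other H3K4me3-only neighbours, AC074212.3, FBXO46, DMWD and RSPH6A, start nearer to SIX5 and had lower signals of 41.9, 47.3, 57.3 and 61.0. DMPK, 13.3 kb away and unmarked, had 11.4. The SIX4 and SIX6 starts lie 215 kb apart on the same chromosome and were in different classes in −Dox cells, with H3K27me3 signals of 3.80 and 176.

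The MEF3 motif, the binding sequence of SIX-family factors in muscle genes, was searched as TCAGGTTTC on both strands of the 6001-base windows. Of the 8 members with a placed window, SIX4 alone held it, with 2 matches, and 6.19% of all placed windows held at least 1. A match of these letters does not show binding.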
